A study of Mus musculus with 6 samples.

Results

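Trophoblast lineage genes were read out in mouse epiblast-like cells (EpiLCs) with and without Smad2 and Smad3. The set held 10 genes, chosen by name: the transcription factors Cdx2, Gata3, Gata2, Tfap2a, Elf5, Ets2, Hand1, Esx1 and Gcm1, and the placental protein gene Plac1. Each was represented by 1 row of the deposited table, the row with the most reads, out of 24288 gene symbols. EpiLCs are embryonic stem cells (ESCs) moved out of the naive state, here for 48 h in medium with 12 ng/ml Fgf2 and 20 ng/ml activin A, and they model the early post-implantation epiblast. Wild-type (WT) cells were of the CCE line, and Smad2-/-;Smad3-/- double knockout (DKO) cells were of clone KT15.1F6, both of strain 129/Sv//Ev and both at day 2. Total RNA depleted of ribosomal RNA was sequenced from 3 differentiations of each genotype. Since 1 line stood for each genotype, the loss of Smad2/3 and any other difference between the lines cannot be told apart.

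Trophoblast is the first lineage set aside from the embryo proper, and it forms the trophectoderm, then the extra-embryonic ectoderm and finally the cell layers of the placenta. The epiblast, which EpiLCs model, keeps this program off, although Bmp signals can turn on parts of it in cultured pluripotent cells. Smad2 and Smad3 carry Nodal and activin signals to the nucleus, while other Smads carry Bmp signals.

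The targeted genes were examined first. Smad3 reads numbered 1488, 1486 and 1636 in the WT libraries and 40, 58 and 36 in the DKO libraries (log2 fold change -5.12 ± 0.13, SE). Smad2 reads did not fall, at 8260, 7931 and 8643 in WT and 9617, 9617 and 9566 in DKO, and because reads were counted over whole gene bodies this total is no check of the Smad2 allele. Depth ranged from 57644143 to 63046034 reads per library, and 1 read equalled 0.518 to 0.569 normalized reads, the unit of the values below. A library with 3 reads of a gene, the floor used here, stood at 1.56 to 1.71 normalized reads. Low read numbers were mostly even (71.2% of 19692 values from 1 to 12 reads), so both ends of a fragment may have been counted and counting errors are larger than the read numbers imply. Pou5f1, which marks pluripotent cells, was high in both genotypes and differed little (log2 fold change -0.07 ± 0.02), and the other markers of the epiblast are given below.

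Of the 10 genes, 9 passed the filter on low reads and were tested with limma, and 8 were called changed, which means an adjusted p under 0.05 and a change of more than 1.5-fold. Across all 17038 genes tested, 15.4% were called, 7.35% higher and 8.04% lower in DKO. Among the trophoblast genes 7 were higher (Gata3, Gata2, Tfap2a, Hand1, Esx1, Cdx2 and Plac1) and Gcm1 was lower. Ets2 differed by less than the fold threshold, and Elf5 was too low to test. The median log2 fold change of the 9 tested genes was 1.63, beside 0.000122 for all genes. Gata3, Gata2, Hand1, Esx1 and Plac1 passed the filter on low reads only through their DKO libraries. A gene as low in WT that did not rise would have been left out. The number of genes higher and this median are therefore partly selected on the DKO values. In bulk RNA, a change in the number of cells that express a gene and a change in RNA per cell cannot be told apart.

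**Figure D1:**
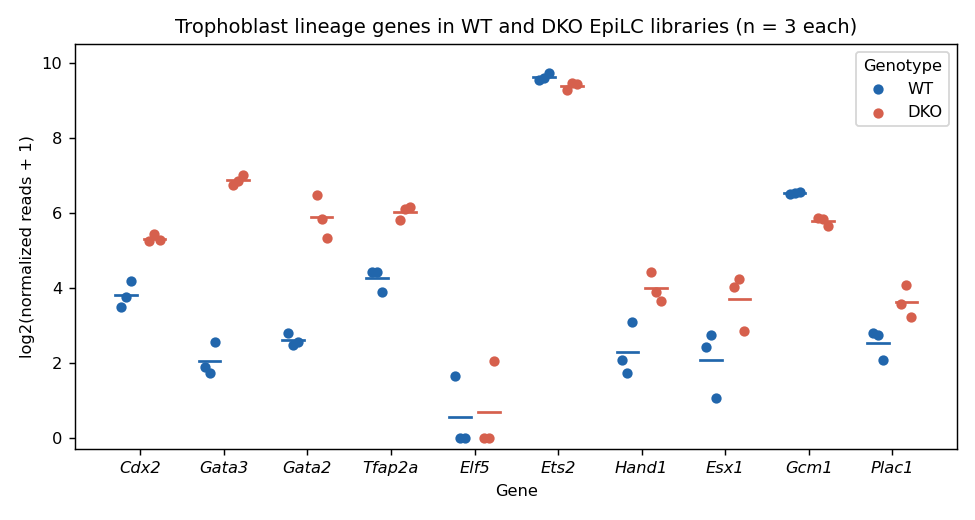
Normalized reads of the 10 trophoblast lineage genes on a log2(value + 1) axis, with 1 point per library (WT blue, DKO red, n = 3 each) and a line at the mean. Gata3 and Gata2 show the widest gaps between genotypes, Ets2 is the most abundant in both, and Elf5 is at 0 in 4 of the 6 libraries.

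Proximal promoters are shown for Gata3 and Gata2, the genes that rose most, for Plac1, the only gene of the set that is not a transcription factor, and for Gcm1, the gene that fell. Each window runs from 250 bases before to 50 bases after an annotated start (RefSeq, GRCm38.p6, the assembly also called mm10), written 5′ to 3′ along the gene. Windows were found for 9 of the 10 genes, all but Hand1. Capitals mark GGCGCC, a palindrome and a GC-rich element that Bmp-activated Smads are known to bind.
Gata3, chr2:9878551-9878850, minus strand: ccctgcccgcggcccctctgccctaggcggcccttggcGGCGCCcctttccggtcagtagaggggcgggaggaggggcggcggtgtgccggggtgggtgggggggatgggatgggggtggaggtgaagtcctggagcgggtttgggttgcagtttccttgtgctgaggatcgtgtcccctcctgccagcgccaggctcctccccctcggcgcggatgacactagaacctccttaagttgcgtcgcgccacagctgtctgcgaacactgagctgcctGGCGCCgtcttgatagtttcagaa
Gata2, chr6:88198414-88198713, plus strand: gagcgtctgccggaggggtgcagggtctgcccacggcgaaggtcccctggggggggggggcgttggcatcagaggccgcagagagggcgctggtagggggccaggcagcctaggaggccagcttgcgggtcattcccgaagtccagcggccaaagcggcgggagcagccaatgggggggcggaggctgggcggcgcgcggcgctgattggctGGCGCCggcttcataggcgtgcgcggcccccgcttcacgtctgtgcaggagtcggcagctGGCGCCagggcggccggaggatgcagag
Plac1, chrX:53114356-53114655, minus strand: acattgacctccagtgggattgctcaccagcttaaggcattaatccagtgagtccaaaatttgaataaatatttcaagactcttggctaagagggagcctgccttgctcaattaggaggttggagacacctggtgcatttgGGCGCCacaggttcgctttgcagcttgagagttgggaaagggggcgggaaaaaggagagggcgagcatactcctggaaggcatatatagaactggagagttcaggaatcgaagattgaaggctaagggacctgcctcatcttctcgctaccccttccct
Gcm1, chr9:78051708-78052007, plus strand: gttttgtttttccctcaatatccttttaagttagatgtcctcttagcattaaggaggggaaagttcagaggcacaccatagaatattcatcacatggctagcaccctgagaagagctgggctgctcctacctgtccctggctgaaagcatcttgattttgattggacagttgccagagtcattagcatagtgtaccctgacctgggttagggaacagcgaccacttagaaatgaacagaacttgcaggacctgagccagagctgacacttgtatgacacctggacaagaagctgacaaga
The element occurred 2 times in the Gata3 window, 2 times in the Gata2 window and 1 time in the Plac1 window, and not in the Gcm1 window. Among all 32851 promoter windows, 11.9% held at least 1 copy and 2.04% at least 2. In the 8701 windows with 20 or more CpG dinucleotides, which include those of Gata3 (22) and this Gata2 start (29), these shares were 32.7% and 7.02%. The windows read for Cdx2, Tfap2a, Elf5, Ets2 and Esx1, the upstream start of Gata2 and a distal start of Plac1 held none. A match of letters is a description and shows neither binding nor a cause.

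Of the regulators of the early trophectoderm, Gata3, Gata2, Cdx2 and Tfap2a were each higher in DKO, Gata3 the most. Gata3 encodes a zinc finger factor that acts in trophectoderm beside Cdx2. Its reads were 5, 4 and 9 in WT and 198, 215 and 246 in DKO (NM_008091, chromosome 2, 9857078 to 9878600). The groups were far apart, since the lowest DKO value was 22.2 times the highest WT value. Mean levels were 3.25 ± 1.35 and 116 ± 10.7 normalized reads (SD, n = 3 each), and limma gave 4.82 ± 0.25 (log2 fold change and its SE, adjusted p = 7.91e-15). By size of increase, Gata3 ranked 5 among all genes tested.

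Gata2 (NM_008090, chromosome 6, 88198334 to 88207030) encodes a related factor that acts with Gata3 in trophoblast. It had 11, 8 and 9 reads in WT and 162, 106 and 76 in DKO. All DKO values lay above all WT values, yet they were spread widely among themselves. Levels were 5.09 ± 0.723 and 60.8 ± 24.3 normalized reads, and the log2 fold change was 3.28 ± 0.28 (limma adjusted p = 1.85e-10, rank 18). The coefficient of variation of Gata2 in DKO was 40.0%, against a median of 11% for 2497 genes whose DKO mean was within 2 times that of Gata2, and 99.9% of those genes varied less. Gata3 varied by 9.28% in the same libraries. The ratio of Gata3 to Gata2 reads was 0.455, 0.50 and 1.0 in WT and 1.22, 2.03 and 3.24 in DKO, so the ranges of the ratio did not overlap. The WT ratios rest on few reads of either gene and have a wide counting error, and the nearest WT and DKO ratios were close.

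**Figure D2:**
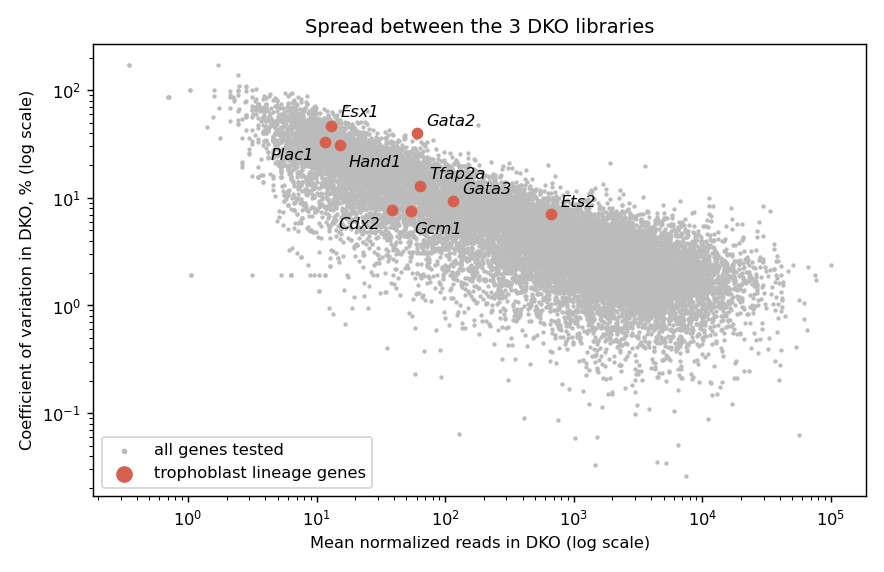
Coefficient of variation between the 3 DKO libraries against mean normalized reads in DKO, both on log axes, for all genes tested (grey) and the 9 tested trophoblast genes (red). Gata2, at 40.0%, sits at the upper edge of the cloud for its level, while Gata3 at 9.28% lies within it.

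Cdx2, a homeobox factor required for the trophectoderm, was detected in WT and rose from there. Its reads were 19, 22 and 32 in WT and 68, 80 and 72 in DKO (NM_007673, chromosome 5, 147300805 to 147307270). The groups did not overlap, and DKO values were tight. The means were 13.3 ± 3.49 and 38.6 ± 2.95 normalized reads (log2 fold change 1.50 ± 0.24, limma adjusted p = 6.55e-06).

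Tfap2a encodes an AP-2 factor found in trophoblast and in surface ectoderm. Its reads were 38, 36 and 26 in WT and 102, 128 and 136 in DKO (NM_001301674, chromosome 13, 40715675 to 40733823), again without overlap. Levels rose from 18.3 ± 3.80 to 64.2 ± 8.23 normalized reads (log2 fold change 1.77 ± 0.20, limma adjusted p = 3.74e-08). A shorter Tfap2a row shares most of these reads, and those that only the longer row holds numbered 0, 2 and 0 in WT and 7, 8 and 13 in DKO. The antisense gene Gm26688 overlaps 6016 bases of the row and had 0, 2 and 4 reads in WT and 7, 6 and 0 in DKO, too few to test.

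Elf5 and Ets2 act in trophoblast stem cells. Elf5, an ETS factor that sustains these cells, was nearly silent, with 4, 0 and 0 reads in WT and 0, 0 and 6 in DKO (NM_001145813, chromosome 2, 103411688 to 103450986). In 4 of the 6 libraries no read was found, which allows up to 3 reads each, and 1 library of each genotype was above that floor. Pooled over libraries and corrected for size factors, the ratio of DKO to WT reads was 1.45 with a 95% counting interval of 0.343 to 6.98, so that neither a rise nor a fall was detectable at this depth. Fitted without the filter, the log2 fold change was 0.13 ± 0.58 (limma adjusted p = 0.884).

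Ets2, an ETS factor that is also active in many other cells, was by far the most abundant gene of the set. Its reads were 1374, 1366 and 1580 in WT and 1141, 1332 and 1336 in DKO (NM_011809, chromosome 16, 95702075 to 95721051). All DKO values lay below all WT values, with the highest DKO library close to the lowest WT library. Levels were 786 ± 52.8 and 669 ± 47.5 normalized reads. The log2 fold change of -0.23 ± 0.06 had a 95% interval of -0.35 to -0.12 and an adjusted p of 0.00121 (limma), short of the 1.5-fold threshold. Ets2 made up 84.5% ± 0.848 of the summed normalized reads of the set in WT and 64.1% ± 2.54 in DKO (SD, n = 3). All 10 genes summed to 930 ± 53.1 normalized reads in WT and 1043 ± 39.6 in DKO, so the whole sum changed little. Without Ets2 the sum was 144 ± 0.326 in WT and 374 ± 18.6 in DKO. Without Ets2 and Gcm1, which were both lower in DKO, the sum of the other 8 genes was 53.5 ± 1.26 in WT and 320 ± 14.6 in DKO. Leaving out the lower genes selects on the same data, so this last rise is no separate result.

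Factors of the differentiating placenta moved in both directions. Hand1, a bHLH factor that drives trophoblast giant cells and also marks extra-embryonic mesoderm, had 6, 4 and 14 reads in WT and 38, 26 and 22 in DKO (NM_008213, chromosome 11, 57828707 to 57832147). The lowest DKO value was 1.53 times the highest WT value. Levels were 4.32 ± 2.76 and 15.2 ± 4.71 normalized reads (log2 fold change 1.69 ± 0.40, limma adjusted p = 0.000812).

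Esx1, an X-linked homeobox gene of the placental labyrinth, had 8, 10 and 2 reads in WT and 28, 34 and 12 in DKO (NM_007957, chromosome X, 137115397 to 137120326). The groups nearly touched, since the lowest DKO value was 1.09 times the highest WT value. Levels were 3.69 ± 2.37 and 13.1 ± 6.08 normalized reads, and the limma estimate was 1.63 ± 0.46 on the log2 scale (95% interval 0.68 to 2.59, adjusted p = 0.00431).

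Gcm1, which directs syncytiotrophoblast of the labyrinth, was the exception. It had 166, 160 and 173 reads in WT and 105, 107 and 95 in DKO (NM_008103, chromosome 9, 78051924 to 78065624). The groups were well separated, with DKO lower. Normalized reads were 90.8 ± 1.56 and 54.0 ± 4.11 (log2 fold change -0.74 ± 0.14, limma adjusted p = 4.69e-05). Only Ets2 had more reads in WT among the 10 genes.

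Plac1, an X-linked gene for a protein of the trophoblast surface, rose least among the genes called higher. Its reads were 11, 10 and 6 in WT and 20, 30 and 16 in DKO (NM_019538, chromosome X, 53069996 to 53114530). The groups did not overlap, with the lowest DKO value 1.40 times the highest WT value. Levels were 4.93 ± 1.51 and 11.6 ± 3.80 normalized reads (log2 fold change 1.08 ± 0.38, limma adjusted p = 0.0191). The call was lost without WT replicate 3 (0.85, adjusted p = 0.0792) or without DKO replicate 2 (0.85, adjusted p = 0.125). The lncRNA Gm35988 spans all 44535 bases of the Plac1 row and is not counted on its own. Its strand and the use of strand in counting are not given, so its reads may or may not be included. The study itself names 5 of the 10 genes (Gata2 and Gata3 for EpiLCs, and Cdx2, Elf5 and Plac1 for ESCs or embryoid bodies of these lines), so the count of genes called is not independent of its choices.

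**Figure D3:**
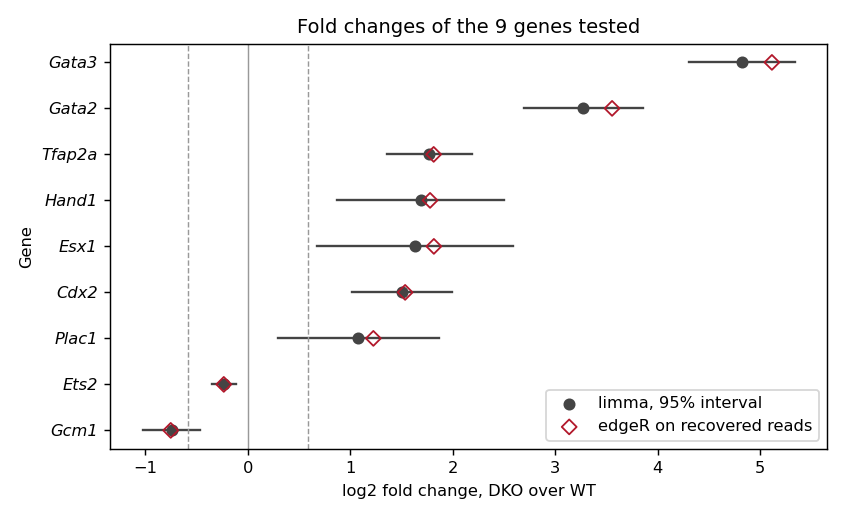
Log2 fold changes (DKO over WT) of the 9 genes tested, with limma estimates and 95% intervals in black and edgeR estimates from recovered reads as open diamonds; dashed lines mark a 1.5-fold change. The interval of Gata3 runs from 4.30 to 5.34, whereas that of Plac1, 0.30 to 1.86, crosses the dashed line.

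The groups of 7 genes did not overlap upwards and those of 2 genes (Ets2 and Gcm1) did not overlap downwards. Without any threshold on size, 59.0% of all genes tested showed such separation, 29.7% upwards and 29.3% downwards, so separation alone was common. Within DKO, libraries did not rank alike across the set. Gata2, Hand1 and Gcm1 were highest in DKO replicate 1 and lowest in DKO replicate 3, whereas Gata3 and Tfap2a were highest in replicate 3 and lowest in replicate 1.

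Levels were compared between genes as normalized reads per kilobase of gene body, introns included. In WT the order was Ets2 (41.4), Gcm1 (6.63), Cdx2 (2.05), Hand1 (1.26), Tfap2a (1.01), Esx1 (0.747), Gata2 (0.585), Gata3 (0.151), Plac1 (0.111) and Elf5 (0.0182). From Cdx2 to Gata2 each gene's range over libraries overlapped that of the next, as did Gata3 and Plac1. In DKO the order was Ets2 (35.2), Gata2 (6.99), Cdx2 (5.98), Gata3 (5.37), Hand1 (4.41), Gcm1 (3.94), Tfap2a (3.54), Esx1 (2.65), Plac1 (0.261) and Elf5 (0.0264). Here the ranges of all neighbours from Gata2 to Esx1 overlapped. As normalized reads not divided by length, Gata3 reached 0.558% and Gata2 0.292% of the Pou5f1 value in DKO, from 0.0149% and 0.0233% in WT. Row lengths differ, so these shares do not rank the genes as the values per kilobase do.

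Other genes of the trophoblast program were counted from lists chosen with earlier results of these data known. The filter on low reads bears on this and all later lists as it does on the set. Dlx3, Dlx5 and Hnf4a, low in WT, passed it only with their DKO libraries. Pax3 and Wnt3a, low in DKO, passed it only with their WT libraries. Counts and medians of the lists are therefore partly selected on the same values. Among 14 further regulators of trophectoderm and extra-embryonic ectoderm, 13 were tested, 7 were higher and 1 was lower (median log2 fold change 0.62). The AP-2 factor Tfap2c rose from 67.5 ± 1.14 to 390 ± 51.3 normalized reads (2.50 ± 0.10), the Fgf4 receptor gene Fgfr2 by 1.58 ± 0.04, the ETS factor Elf3 by 1.53 ± 0.07 and the Nodal-processing protease gene Pcsk6 by 1.19 ± 0.05. Satb1, a chromatin organizer named after its value was seen, was the one lower, at -1.14 ± 0.06. Tle3 (-0.26 ± 0.03) and Esrrb (0.18 ± 0.05) were not called, nor was Tead4 (0.39 ± 0.14), named after its value was seen. The study names 4 of the 13 (Fgfr2 and Tfap2c for EpiLCs, and Tle3 and Eomes for other stages), so the count is not independent of its choices.

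Among 21 genes of placental differentiation, 12 were tested, 8 were higher and 0 lower (median 0.74, 4 of the 12 named by the study). They included the signal gene Wnt7b (1.94 ± 0.26), the spongiotrophoblast regulator Ascl2 (1.59 ± 0.11) and Dlx3 (1.58 ± 0.45). Cdkn1c (-0.33 ± 0.04) and Phlda2 (-0.42 ± 0.07), imprinted genes that restrain placental growth, were not called. Of the genes of mature placental cells, Tpbpa, Prl3d1, Prl3b1, Prl2c2, Prl2c3 and Synb had no reads in any library, which allows up to 3 reads in each. Prl2c genes have near-identical copies, so reads could be lost to other copies.

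Close relatives of the set did not follow a common direction. Of 15 paralogs, 10 were tested, 4 were higher and 2 lower (median 0.38). Besides Tfap2c and Elf3, Cdx4 rose by 1.21 ± 0.41 and Gata6, an endoderm factor, by 1.18 ± 0.25, while the ETS genes Ehf (-1.22 ± 0.38) and Ets1 (-1.04 ± 0.10) were lower. Gata6 and Ets1 were named after their values were seen. Without WT replicate 2 (0.66) or DKO replicate 2 (1.09) Cdx4 was no longer called, nor was Ehf without WT replicate 1 (-0.91). Gata1 (0.21 ± 0.21) and Tfap2e (0.06 ± 0.22) were not called.

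Markers of other cell types that also use these genes were counted beside them. Of 11 surface ectoderm markers tested, 4 were higher (Dlx5 2.22 ± 0.37, Wnt6 2.11 ± 0.25, Grhl3 1.85 ± 0.09 and Krt8 1.64 ± 0.06) and 1 was lower (Krt14, -1.18 ± 0.30, named after its value was seen), and their summed level was 18275 to 18984 normalized reads in WT and 20891 to 21614 in DKO. Most of this sum came from Epcam (mean 9100 in WT and 9298 in DKO) and Grhl2 (5435 and 6971), neither of them called. Krt5, a marker of stratified epithelium, had at most 6 reads in a library. Of 6 extra-embryonic mesoderm and amnion markers tested, Msx2 (2.14 ± 0.27) and Msx1 (0.95 ± 0.11) were higher and Bmp4 (-0.77 ± 0.13) lower, with sums of 323 to 342 in WT and 356 to 408 in DKO. Foxf1, Postn, Pitx1 and Hoxa13 were too low to test.

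Of 10 posterior primitive streak markers tested, 3 were higher and 5 lower (median -0.78), with sums of 1437 to 1565 in WT and 1309 to 1577 in DKO. Wnt8a, which was not called, made up most of that sum, at a mean of 1054 in WT and 1201 in DKO. Fgf8 (-4.87 ± 0.26), T (-1.55 ± 0.23) and Mixl1 (-1.55 ± 0.29) fell, whereas Evx1 rose (1.99 ± 0.31). The others called, named after their values were seen, were Cdx4 and Hoxb1, higher, and Sp5 and Wnt3a, lower. Wnt3a lost its call without WT replicate 3 (-0.85), DKO replicate 2 (-1.05) or DKO replicate 3 (-1.15). Of 10 extra-embryonic endoderm markers tested, 4 were called higher and 0 lower (Hnf4a 1.90 ± 0.36, Gata6 1.18 ± 0.25, Pdgfra 1.16 ± 0.15 and Cubn 0.92 ± 0.13). Gata4 (0.55 ± 0.26) and Dab2 (-0.37 ± 0.10) were not called. Sox17 (-0.58), Afp (-0.38), Foxa2 (-0.29) and Amn (-0.11), named after their values were seen, were not called either. The list summed to 406 to 442 in WT and 516 to 582 in DKO, and the defining genes Ttr and Apoa1 were too low to test. The part of these other cell types in the trophoblast gene values was not tested.

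Epiblast markers remained abundant. Of 10 tested, 2 were higher (Sox2 1.47 ± 0.03 and Sall4 0.67 ± 0.02) and 3 lower (Fgf5 -2.02 ± 0.04, Tdgf1 -0.93 ± 0.02 and Pou3f1, named after its value was seen, -0.62 ± 0.03), with sums of 135131 to 140048 in WT and 132235 to 134435 in DKO. Neural crest markers gave 1 higher (Pax7 1.19 ± 0.36) and 2 lower (Snai2 -1.16 ± 0.33 and Pax3 -1.0 ± 0.39) of 6 tested, with sums of 2246 to 2524 in WT and 2977 to 3168 in DKO. Foxd3, which was not called, made up most of the neural crest sum, at a mean of 2258 in WT and 2915 in DKO. Pax7 lost its call without WT replicate 2 (0.81), and Pax3 without WT replicate 1 (-0.85), WT replicate 3 (-1.06), DKO replicate 1 (-1.02) or DKO replicate 2 (-0.85). Of 7 fibroblast markers tested, Dcn (-2.14 ± 0.05) and Col1a2 (-1.07 ± 0.11) were lower and 0 were higher, with sums of 9103 to 10148 in WT and 5590 to 6336 in DKO. Most of the fibroblast sum was Fn1, which was not called (-0.54 ± 0.04), at a mean of 7738 in WT and 5326 in DKO.

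Bmp response genes gave 6 higher and 2 lower of 11 tested (median 0.95). The largest increases were those of Id1 (6.51 ± 0.06), Id3 (4.42 ± 0.06), Id2 (2.35 ± 0.05) and Msx2 (2.14 ± 0.27). The 2 lower were Smad7 (-2.09 ± 0.05) and Hey1 (-1.39 ± 0.25), both named after their values were seen. Smad6 (0.56 ± 0.08, short of the 1.5-fold threshold) and Bambi (-0.20 ± 0.06) were not called. Smad9 (-0.37 ± 0.15), named after its value was seen, was not called either. The study named 4 of the 11 from these libraries.

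**Figure D4:**
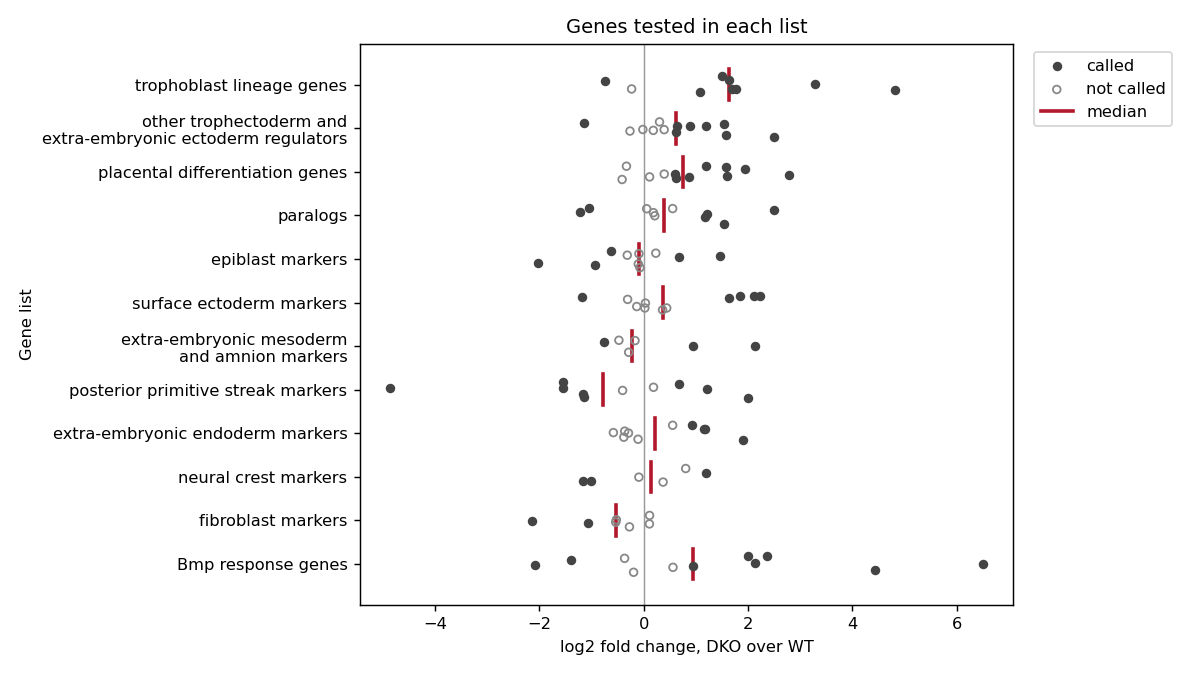
Log2 fold changes (DKO over WT) of the genes tested in the trophoblast set and in 11 further lists, with filled points for genes called, open points for those not called and a red line at the median. The trophoblast set has a median of 1.63, the placental list 0.74 and the posterior primitive streak list -0.78.

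Genes whose pattern over the 6 libraries lay nearest to each called gene were found by Euclidean distance between centred log2 values, which is a description over libraries that share a genotype split. Gata3 lay nearest to the noncoding BC052688 (distance 0.637), Id3 (0.737) and Aspa (1.20). Gata2 lay nearest to C130021I20Rik (0.603), the water channel gene Aqp3 (0.709) and the growth factor gene Igf2 (0.794). For Cdx2 they were Lrrc4b, AA414768 and Lpar1 (0.198 to 0.333), for Tfap2a Fos, Aldh1a3 and Tbx3 (0.316 to 0.373), and for Hand1 Atoh1, Evx1os and Tshz1 (0.494 to 0.600). Plac1 lay nearest to D330050G23Rik, Nxpe4 and Ltb4r1 (0.339 to 0.455), Esx1 to Adgb, Gm10532 and 1700104L18Rik (0.872 to 0.905), and Gcm1 to Cntnap5a, Angptl2 and Zfp647 (0.0537 to 0.0890).

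The nearest counted gene on each side of each of the 10 genes, overlapping genes aside, was also examined. Of 20 such neighbours 13 were tested and 3 were called (23.1%, beside 15.4% of all genes), each in the direction of the gene next to it. The noncoding C430049B03Rik, 12.8 kb from Plac1, rose by 0.70 ± 0.17, Fam199x, 32.9 kb from Esx1, rose by 0.60 ± 0.04, and Fbxo9, 15.9 kb from Gcm1, was lower at -0.61 ± 0.04. The tested neighbours of the genes that rose most did not pass the threshold, with Taf3 beside Gata3 at -0.04 ± 0.04 and Rpn1 beside Gata2 at 0.02 ± 0.02. The antisense 4930412O13Rik upstream of the counted Gata3 row had 0, 2 and 0 reads in WT and 6, 12 and 8 in DKO and was too low to test.

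**Figure D5:**
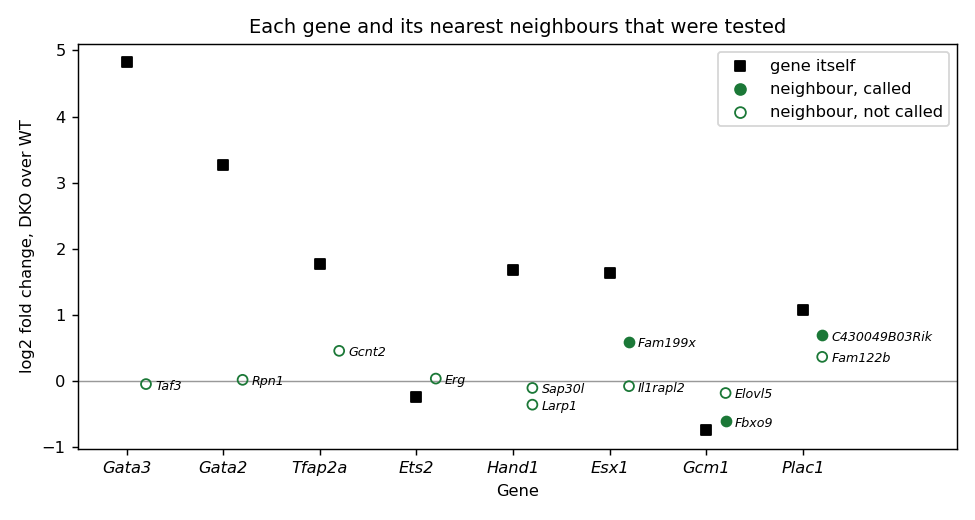
Log2 fold changes (DKO over WT) of 8 trophoblast genes (black squares) and of their nearest tested neighbours (green, filled when called). Taf3 and Rpn1 sit near 0 beside Gata3 at 4.82 and Gata2 at 3.28, whereas Fbxo9 at -0.61 is close to Gcm1 at -0.74.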

How the data were processed

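RNA-seq libraries of WT (n = 3) and DKO (n = 3) EpiLCs were analysed, and the labels describe the 3 of each genotype as separate differentiations. Per the study's methods, ribosomal reads were removed with Bowtie2, the rest aligned to mm10 with STAR, duplicates removed with SAMtools and reads counted over refGene gene bodies. Versions of these tools, and whether counting used strand, are not given in the sources used here. The authors deposited a signal for each row in each library, namely a read count scaled by that library's size factor and not by gene length. The authors' comparison table of fold changes and p-values was not used.

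Reads were recovered by dividing by the value of 1 read, and 100% of values were whole within 0.01 reads, with size factors of 1.76 to 1.93. Of 33812 rows, 138 without a symbol (0.517% of reads) were left out. The test was limma (version 3.58.1, R 4.3.3) with a variance trend on log2(value + 1), which understates changes of low genes, after filterByExpr of edgeR (version 4.0.16), with Benjamini-Hochberg adjustment over all genes tested. Fits were tested on simulated data. Alternatives used edgeR, DESeq2 (version 1.42.0), TMM factors, pseudocounts of 0.5 and 5, other filters, no fold threshold, all rows, a replicate block and each library left out.

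Named genes were the 10 trophoblast genes, Smad2 and Smad3, from each list up to 4 called genes by size and up to 2 uncalled genes by level, the 3 genes nearest in pattern to each called gene, and neighbouring or overlapping genes. Exceptions are marked in the text. Uncalled genes that the rule chose but the sections above leave out are given here by log2 fold change. They are Dnmt3b (-0.11), Wnt3 (-0.41), Tbx20 (-0.48), Tbx4 (-0.17), Twist1 (-0.09) and Fbln2 (-0.27). A gene selected by this rule is not reported here. The genes and lists were chosen with earlier results of these data known. Positions came from GENCODE M21 transcripts matched to the row's RefSeq identifier. The limma intervals and SE rest on the spread between libraries of a genotype, with variances shared across genes. The counting interval of Elf5 and the floors cover counting error alone. No molecular identifiers were used, and reads are not separate molecules.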

Additional observations from a re-analysis of the deposited data

How the results depend on the processing

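Across 17 alternatives the calls of Gata3 (log2 fold change 3.88 to 5.14), Gata2 (2.64 to 3.57), Cdx2 (1.27 to 1.69), Tfap2a (1.58 to 1.88), Hand1 (1.13 to 2.08) and Gcm1 (-0.78 to -0.68) held. Esx1 (1.03 to 2.06) held in the 16 that tested it. Plac1 (0.73 to 1.28) lost its call without WT replicate 3 (0.85, adjusted p = 0.0792) and without DKO replicate 2 (0.85, adjusted p = 0.125), the cause was not tested, and a filter of 20 reads in 3 libraries tested neither Plac1 nor Esx1. Of 54 list genes called, 10 lost the call when 1 library was left out, among them Cited1, Eomes, Krt7, Rhox6 and Sox21 beside those given above. DESeq2 left 3 of the 54 uncalled (Cdx4, Pax3 and Wnt3a), a pseudocount of 5 left 2 (Krt7 and Sox21), and the filter of 20 reads removed 4 (Dlx3, Ehf, Pax3 and Wnt3a). With a library left out, 6 to 7 genes of the set were higher and 2529 to 2610 of all genes changed. Without the fold threshold, by construction, 9098 genes changed (4591 higher, 4507 lower) in place of 2623, 2 genes of the set were lower since Ets2 (-0.23, adjusted p = 0.00121) joined Gcm1, and 10 epiblast markers, 8 surface ectoderm markers and Smad2 (0.16) were called. On recovered reads edgeR called 2638 genes and DESeq2 2475. Halving the reads, an alternative chosen after seeing the data, gave 2631. All rows with a symbol gave 3904 rows called.

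Libraries with the same replicate number did not deviate together (correlations of -0.00787, -0.0252 and 0.00475 over 13071 genes), so the numbers were not taken as pairs. With a replicate block 2602 genes were called, and the 7 higher and 1 lower of the trophoblast set were unchanged in number.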
